A study of Rattus norvegicus with 18 samples.

Results

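The adrenal glands of spontaneously hypertensive rats (SHR) and of Wistar-Kyoto rats (WKY), both untreated and 6 weeks old, were compared across all genes on an array. The comparison used the 6 arrays that the labels give as SHR at 6 weeks (3 arrays) and WKY at 6 weeks (3 arrays), of 18 arrays in the series. The other 12 arrays hold WKY and SHR at 3 weeks and the stroke-prone strain SHRSP at 3 and 6 weeks, 3 arrays each. The 3 arrays of a group were labelled as biological replicates, and nothing in the labels says whether each held 1 animal or a pool. The sex of the rats, the hour of sampling and how far the gland was trimmed of surrounding fat are not given in the sources used here.

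SHR were bred from Wistar rats of Kyoto for high blood pressure, which develops in the weeks after weaning, and WKY are the normotensive strain kept as their usual control. SHR and WKY differ at many loci besides those that set blood pressure, so the comparison is one of whole strains. The adrenal gland joins 2 tissues. The cortex makes aldosterone in its outer zona glomerulosa and corticosterone in the zona fasciculata, under angiotensin II, potassium and ACTH. The medulla holds chromaffin cells, which make, store and release adrenaline and noradrenaline when the splanchnic nerve fires. In a whole gland, a change in the amount of RNA per cell and a change in the number of cells of a type cannot be told apart.

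Levels below are on the log2 scale, each array's own 75th percentile of processed signal being set to 0, so that 0 is the signal of the probe at that percentile, and they serve to compare arrays for 1 gene, not genes with each other. Differences are log2 differences of SHR minus WKY from limma, with their standard error (SE). A gene was called higher or lower where the p-value, adjusted by Benjamini-Hochberg over all genes tested, was under 0.05. Where a probe stood well above background on none of a group's 3 arrays, the fold is a lower bound ("at least"), taken from the lowest signal that did so on those arrays or from the probe's own signal where that was higher.

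The strain labels were checked across the 2 ages with genes that were near on or off, picked from these same data. In these genes the labels SHR and SHRSP did not carry the same pattern at 3 and 6 weeks. Vegfb, which encodes a vascular growth factor, was at -9.46, -10.01 and -9.35 on the arrays labelled SHR at 3 weeks and at -9.97, -9.67 and -9.18 on the arrays labelled SHRSP at 6 weeks, in none of which its probe was well above background. It lay between 0.20 and 0.73 on the other 12 arrays. Agtrap, which encodes a protein that binds the angiotensin II type 1 receptor, showed the converse. It was at -4.83, -4.81 and -5.21 on the arrays labelled SHRSP at 3 weeks and at -4.41, -4.74 and -5.15 on the arrays labelled SHR at 6 weeks, and between -0.28 and 0.63 on the others. Serpinc1, Ephx2, Stard4 and Zfp597 followed Agtrap: in each, the arrays labelled SHR at 6 weeks stood with the arrays labelled SHRSP at 3 weeks. Of 25 genes called and at least 4-fold different between the arrays labelled SHRSP and SHR at both ages, 22 (88.0%) changed sign with age and 3 (Hspa1b, MGC94891 and Tent5c) did not. Of the 733 genes called in that contrast at both ages whatever the size, 345 (47.1%) changed sign. The calls numbered 1653 of all genes tested at 3 weeks (7.93%; 4.73% higher in SHRSP and 3.2% lower) and 3113 at 6 weeks (14.9%).

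The WKY label showed no such exchange. Oxnad1 lay between -10.39 and -8.71 on all 6 WKY arrays and between -2.34 and -0.49 on the 12 arrays labelled SHR or SHRSP. Apln lay between -0.64 and 1.45 on the WKY arrays and between -4.69 and -2.75 on the others. Whether the labels or the animals differ between the ages, and at which age, cannot be told apart with these data. Everything below is therefore about the arrays labelled SHR at 6 weeks, written as SHR, and the difference of the arrays labelled SHRSP at 6 weeks from the same WKY arrays is given beside the results. Those 2 differences share the WKY arrays.

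**Figure D1:**
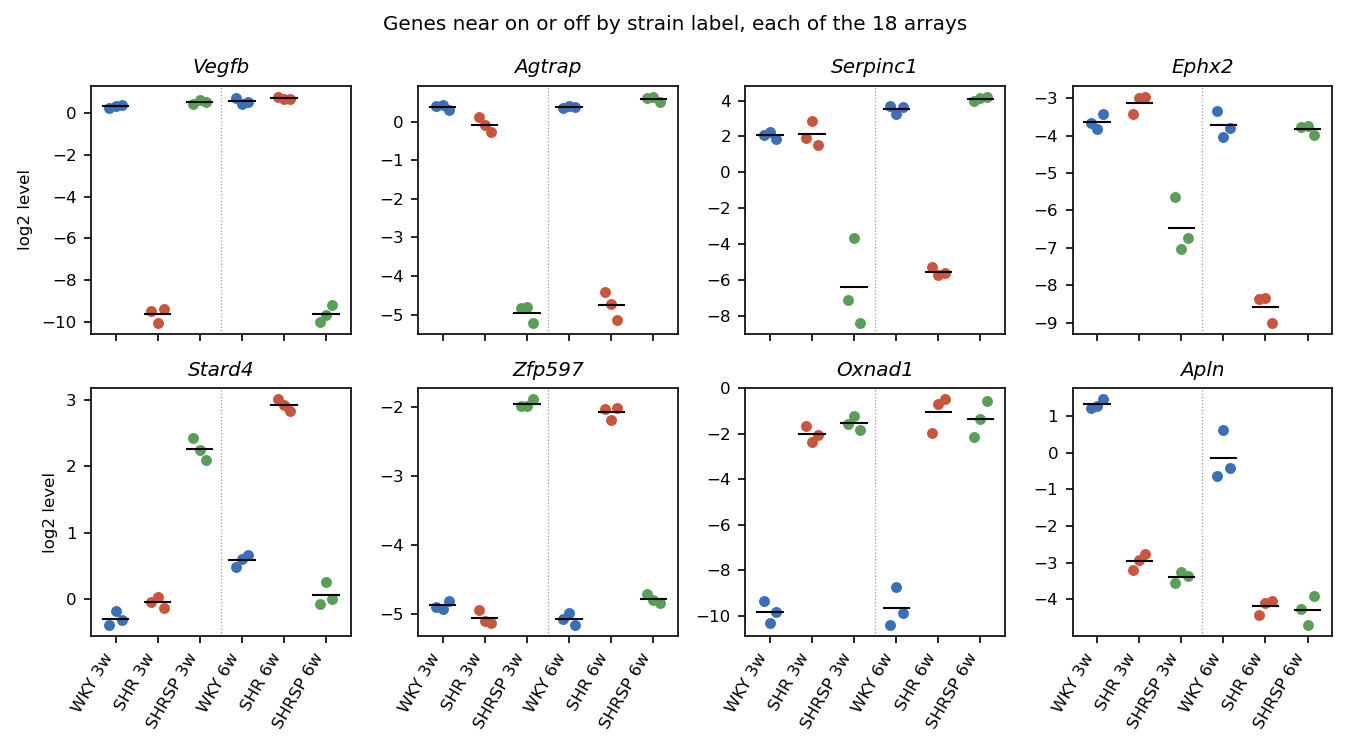
Level of 8 genes on each of the 18 arrays (y axis, log2 signal minus the array's 75th percentile), by strain and age label (x axis), with 1 point per array and a bar at the group mean. In Vegfb, Agtrap, Serpinc1, Ephx2, Stard4 and Zfp597 the arrays that stand apart carry opposite labels, SHR or SHRSP, at 3 and 6 weeks, while in Oxnad1 and Apln the WKY arrays stand apart at both ages.

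At 6 weeks, 6079 of 20849 genes tested were called (29.2%): 3376 were higher in SHR (16.2%) and 2703 were lower (13%). Counts of called genes in the lists below are to be read beside these shares. Most differences were small, with a median size of 0.55 on the log2 scale among the called genes. Called differences of at least 2-fold were found in 1151 genes (5.52%), 473 higher and 678 lower, and those of at least 8-fold in 23 higher and 24 lower. The 3 arrays of each group did not overlap in 7612 genes (36.5%), of which 5717 were called (27.4% of those tested). The median difference over all genes tested was 0.093. Scaling each array to its median in place of its 75th percentile made that median 0.16 and the share of calls that were higher 66.9%, against 55.5%, and quantile normalization made them 0.055 and 49.0%. Small differences in 1 direction therefore depended on the scaling. With the arrays labelled SHRSP in place of SHR, 4988 genes were called at 6 weeks (23.9%), 2315 higher (11.1%) and 2673 lower (12.8%).

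The slides partly followed the groups. Of 5 slides, 1 held arrays of both groups at 6 weeks, with 1 WKY and 2 SHR arrays. The other 3 of the 6 arrays lay on 3 slides that held only 1 of the groups at this age. Without the slide that held both groups, 1 SHR array remains, so counts and calls given below without it rest on that array. The difference had the same sign as in the fit within the scan day of that slide in 6073 of the 6079 called genes (99.9%), and in 6064 (99.8%) within the scan day that held 1 array of each group on separate slides. These arrays are part of the fit, so the shares describe it and are no test of it. With the slide as a block, 7327 genes were called, 5557 of them among the 6079. Signals at the 75th percentile lay between 2092 and 2346 on the 6 arrays, 77.8 to 83.7% of probes were well above background, and Pearson correlations across genes within a group lay between 0.9872 and 0.9952.

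**Figure D2:**
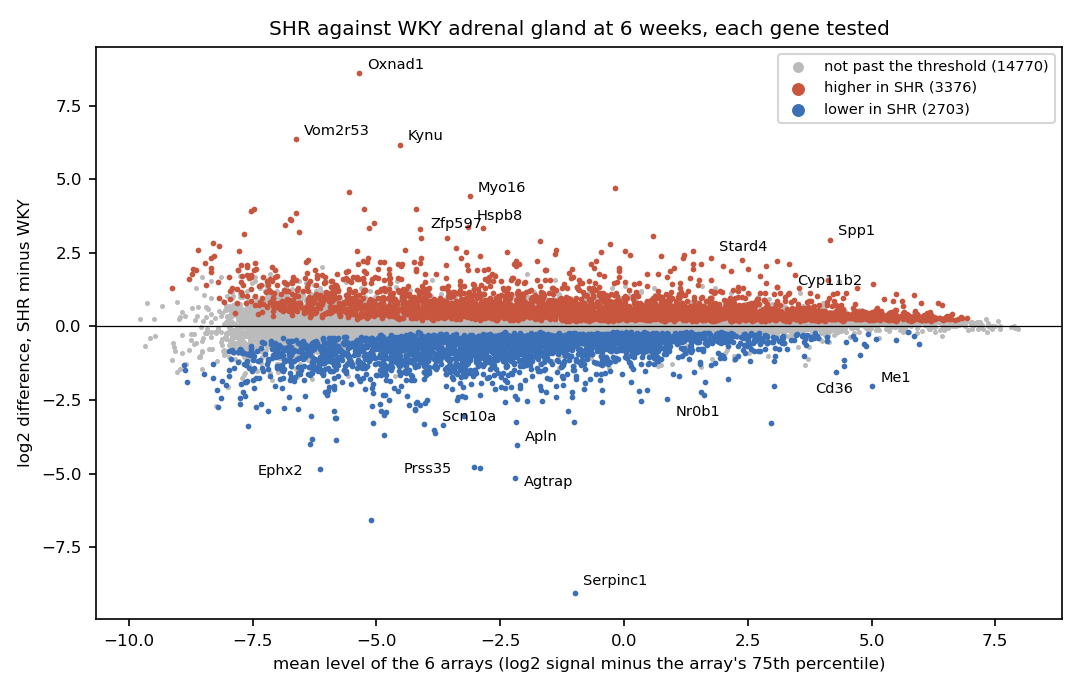
Log2 difference of SHR minus WKY at 6 weeks (y axis) against the mean level on the 6 arrays (x axis, log2 signal minus the array's 75th percentile), with 1 point per gene tested. Red points mark the 3376 genes called higher in SHR, blue points the 2703 called lower and grey points the genes not past the threshold, and the named genes run from Oxnad1 (8.61) to Serpinc1 (-9.06).

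The largest rises in SHR with no overlap between the arrays were in genes whose probes gave little signal in WKY. Each was read through 1 probe, and a strain difference in the sequence under it was not tested. Oxnad1, named for an oxidoreductase domain, was at -10.39, -8.71 and -9.88 in WKY, where it was not well above background, and at -1.96, -0.70 and -0.49 in SHR. The difference was 8.61 ± 0.48 (adjusted p = 3.47e-08), at least 106-fold, and it was 8.31 on the arrays labelled SHRSP. Kynu, which encodes kynureninase of tryptophan breakdown, was at -7.11, -7.56 and -8.18 in WKY and at -1.26, -1.48 and -1.59 in SHR. Its probe was well above background on 1 of the 3 WKY arrays. The difference in Kynu was 6.18 ± 0.21 (adjusted p = 2.49e-10), a 72.3-fold higher level, and the groups lay far apart. Vom2r53, a vomeronasal receptor gene, differed by 6.36 ± 0.92 (adjusted p = 0.000167; at least 20.1-fold), and Myo16, which encodes an unconventional myosin, by 4.42 ± 0.52 (adjusted p = 3.21e-05).

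Several of the other large rises were in genes of metabolism and transport. Acox2, a peroxisomal oxidase of branched-chain and bile acid side chains, was below background in WKY (-9.81, -9.23 and -9.47) and at -5.23, -5.73 and -5.76 in SHR, at least 4.59-fold higher (difference 3.93 ± 0.58, adjusted p = 0.000209). Bco1, which cleaves carotenoids to retinal, rose at least 4.86-fold (3.98 ± 0.71, adjusted p = 0.000815), and Slc1a4, a transporter of neutral amino acids, differed by 3.65 ± 0.49 (adjusted p = 9.39e-05). Rorb, an orphan nuclear receptor, Tmem163, a zinc transporter, and Gpr35, a G protein-coupled receptor, differed by 3.63, 3.51 and 3.36. Rorb was the gene of this set that was not called on the arrays labelled SHRSP against WKY (1.03, adjusted p = 0.226). Hspb8, the small heat shock protein among the 12, is described with the chaperones.

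The largest falls with no overlap were in Serpinc1, Agtrap and Ephx2, all among the genes whose pattern crossed between the labels SHR and SHRSP with age. Serpinc1, which encodes antithrombin, was at 3.72, 3.27 and 3.62 in WKY and at -5.28, -5.69 and -5.61 in SHR, a difference of -9.06 ± 0.79 (adjusted p = 2.2e-06), or 535-fold. Agtrap was at 0.35, 0.41 and 0.38 in WKY and at -4.41, -4.74 and -5.15 in SHR, a difference of -5.15 ± 0.16 (adjusted p = 7.97e-11), or 35.4-fold. On the arrays labelled SHRSP the differences from WKY were 0.57 in Serpinc1 (adjusted p = 0.693) and 0.20 in Agtrap (adjusted p = 0.421), so neither fall was seen under that label at 6 weeks.

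Ephx2 encodes soluble epoxide hydrolase, which breaks down vasodilator epoxides of arachidonic acid, and is one of the genes long linked to the hypertensive strains. It was at -3.35, -4.04 and -3.78 in WKY and, below background, at -8.38, -8.34 and -9.0 in SHR, at least 13.3-fold lower (difference -4.85 ± 0.30, adjusted p = 9.59e-08), against -0.10 (adjusted p = 0.871) on the arrays labelled SHRSP. Its probe is shown because this gene was read here only through these 60 bases. A change in RNA could therefore not be told apart from a strain difference in the sequence under the probe. It lies across an exon junction of the spliced transcript, its ends being 2484 bases apart in the rn4 genome, and is printed 5′ to 3′ with no capitals:

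Ephx2 probe, rn4 chr15:45535737-45538220, minus strand: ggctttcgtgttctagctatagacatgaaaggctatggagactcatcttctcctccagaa

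The other 9 of the 12 largest falls were seen under both labels, except that Dleu7 was not called on the arrays labelled SHRSP. The limit given for Ephx2 applies to all 12 falls and to the 12 largest rises. Each of these genes was read through 1 probe, except Fam154a, whose 2 probes were both called lower. Prss35, which encodes a serine protease-like protein, was at -1.03, -0.34 and -0.56 in WKY and at -5.98, -4.92 and -5.31 in SHR (-4.76 ± 0.34, adjusted p = 3.01e-07, 27.1-fold). Apln encodes apelin, a peptide that lowers blood pressure through its own receptor. It was at -0.64, 0.63 and -0.42 in WKY and at -4.42, -4.09 and -4.03 in SHR (-4.04 ± 0.27, adjusted p = 1.91e-07, 16.4-fold). The groups lay well apart in both genes. Scn10a, a voltage-gated sodium channel of sensory neurons, differed by -3.51 ± 0.17 (adjusted p = 9.75e-09), Aqp3, a channel for water and glycerol, by -3.68 ± 0.25 (adjusted p = 2.43e-07), and Fam154a by -4.80 ± 0.34 (adjusted p = 3.16e-07). Igsf9, an adhesion molecule of the immunoglobulin family, Hsd17b13, a protein of lipid droplets, and Baat, which conjugates bile acids, differed by -3.98, -3.86 and -3.83. Baat was below background in SHR and fell at least 8.44-fold. Dleu7 rested on single arrays: it was at -1.02, -1.75 and -3.25 in WKY and at -9.32, -3.65 and -3.96 in SHR, and its difference of -3.63 (adjusted p = 0.026) became -1.79 (adjusted p = 0.0581) without SHR array 1, -3.14 (adjusted p = 0.0949) without WKY array 1 and -3.50 (adjusted p = 0.0626) without WKY array 2.

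In the cortex, the Cyp11b genes and Hsd3b2 of steroid synthesis rose in SHR, while Cyp11a1, Hsd3b1 and Cyp21a1 did not pass the test. Of 40 genes of steroid hormone synthesis in all, 9 were called higher and 6 lower (median 0.033), where 16.2% and 13% of all genes were. Of 7 transcription factors in that list none was higher and 2 were lower (median -0.44). Of 8 synthesis enzymes, 4 were called higher and none lower, with a median difference of 0.36 against 0.093 over all genes. Cyp11b2 encodes aldosterone synthase. It was at 2.70, 2.83 and 2.74 in WKY and at 3.86, 3.84 and 3.96 in SHR (1.13 ± 0.13, adjusted p = 2.1e-05), a 2.19-fold higher level with no overlap. Cyp11b1, the 11-beta-hydroxylase that makes corticosterone, was at 5.91, 6.03 and 6.21 in WKY and at 6.92, 6.69 and 6.75 in SHR (0.74 ± 0.084, adjusted p = 2.4e-05). The neighbouring copy Cyp11b3 differed by 0.70 ± 0.11 (adjusted p = 0.000432). Cyp11b1, Cyp11b2 and Cyp11b3 are close copies of each other, and how far their probes cross-hybridize was not tested. Hsd3b2, a 3-beta-hydroxysteroid dehydrogenase gene, rose by 0.83 ± 0.18 (adjusted p = 0.00284). Cyp11a1, which cuts the side chain of cholesterol in the first step, was at 7.44, 7.27 and 7.52 in WKY and at 7.57, 7.37 and 7.37 in SHR (0.024, adjusted p = 0.88). Hsd3b1 (-0.01, adjusted p = 0.929) and the 21-hydroxylase gene Cyp21a1 (-0.10, adjusted p = 0.419) also had overlapping arrays. On the arrays labelled SHRSP, 4 of the 8 enzymes were called higher, with 0.88 in Cyp11b2 (adjusted p = 0.000156) and 0.58 in Cyp11b1 (adjusted p = 0.000168).

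Delivery of cholesterol and the signal of ACTH changed in some members. Star carries cholesterol into the mitochondrion, the step that sets the rate of steroid synthesis. It was at 5.52, 5.51 and 5.75 in WKY and at 6.38, 6.32 and 6.45 in SHR (0.79 ± 0.084, adjusted p = 1.43e-05), 1 of 4 delivery genes called. Mc2r, the ACTH receptor, was at 0.78, 0.31 and 0.71 in WKY and at 1.42, 0.91 and 0.97 in SHR (0.50, adjusted p = 0.0139). The call was lost without WKY array 2 (0.36, adjusted p = 0.0603) and without SHR array 1 (0.34, adjusted p = 0.0599). Downstream of the receptor, Prkar1a, the regulatory subunit that restrains protein kinase A, rose by 0.86 ± 0.094 (adjusted p = 1.76e-05). Its probe is placed on chromosome X in rn4, and which transcript the probe reads was not tested. Pde8b, which degrades cyclic AMP in the cortex, fell by 1.0 (SE 0.12, adjusted p = 3.05e-05). Mrap, the partner that takes the ACTH receptor to the surface, differed by 0.35 (adjusted p = 0.0871) with overlapping arrays.

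The largest change among the steroid genes was a fall in Nr0b1, which encodes DAX1, a repressor of steroidogenic transcription. It was at 1.83, 2.56 and 1.91 in WKY and at -0.66, -0.011 and -0.45 in SHR (-2.47 ± 0.21, adjusted p = 1.46e-06), a 5.55-fold lower level, and at -2.62 from WKY on the arrays labelled SHRSP. Nr5a1, the activator SF-1 that DAX1 restrains, differed by 0.38 with overlapping arrays (adjusted p = 0.143). Por, the electron donor of the microsomal P450 enzymes, rose by 0.80 ± 0.14 (adjusted p = 0.000579), while Fdx1 and Fdxr, which serve the mitochondrial ones, were not called (0.24 and 0.11). H6pd, which makes NADPH in the endoplasmic reticulum, fell by 0.63 (SE 0.14, adjusted p = 0.00377) on 1 probe and was not called on the other (-0.034, adjusted p = 0.834). Of 11 genes of steroid inactivation and export, 1 was higher and 2 were lower. Hsd17b11, a 17-beta-hydroxysteroid dehydrogenase, was at 3.05, 3.19 and 3.13 in WKY and at 1.89, 2.0 and 2.01 in SHR (-1.16 ± 0.072, adjusted p = 9.65e-08). Hsd11b2, which inactivates corticosterone, was the member called higher (0.58, adjusted p = 0.0177) with overlapping arrays, and its call was lost without WKY array 2 (adjusted p = 0.0756) or SHR array 1 (adjusted p = 0.0787).

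**Figure D3:**
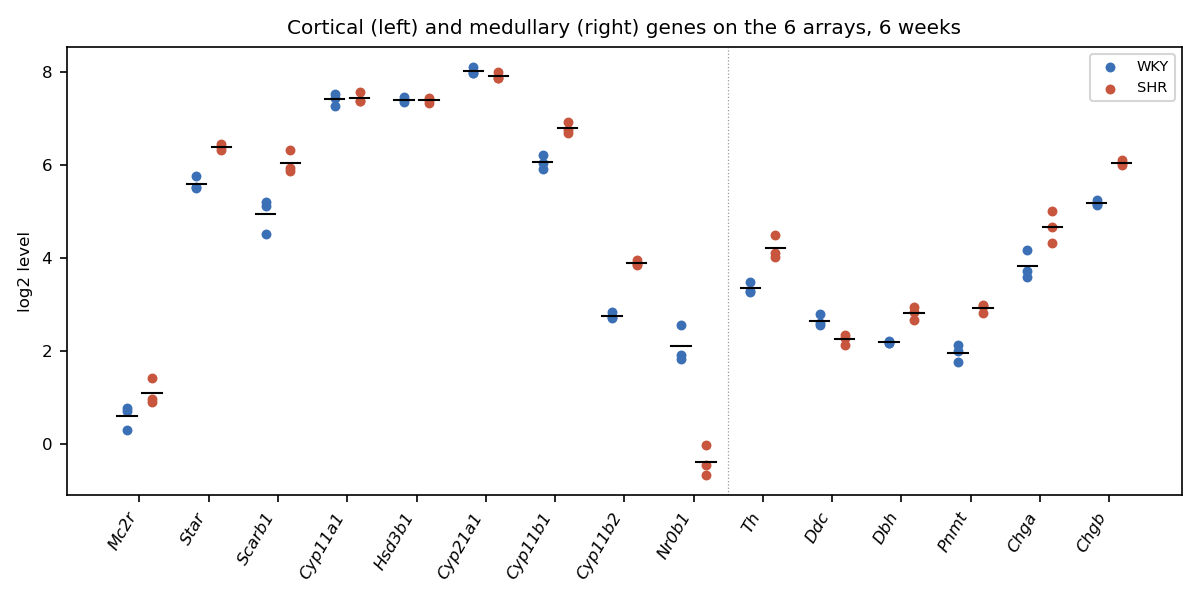
Levels on the 6 arrays (y axis, log2 signal minus the array's 75th percentile) of cortical genes to the left of the dotted line and medullary genes to its right (x axis), with 1 point per array, WKY in blue and SHR in red, and a bar at each mean. Star, Cyp11b1, Cyp11b2, Th, Pnmt and Chgb lay higher in SHR with no overlap, Nr0b1 and Ddc lay lower, and Cyp11a1, Hsd3b1 and Cyp21a1 overlapped.

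Aldosterone-producing cells are held at a negative voltage by potassium channels and answer to angiotensin II with calcium entry. Of 32 genes of the zona glomerulosa and of aldosterone control, 11 were called higher in SHR and 2 lower (median 0.30). The potassium channel genes Kcnk2 (TREK-1) and Kcnk3 (TASK-1) rose by 0.68 ± 0.088 (adjusted p = 6.24e-05) and 0.61 ± 0.16 (adjusted p = 0.00903), and the calcium pump Atp2b3 by 0.49 ± 0.079 (adjusted p = 0.0004). Kcnk2 was at -2.50, -2.18 and -2.31 in WKY and at -1.68, -1.64 and -1.62 in SHR, with no overlap, and the other Kcnk2 probes were not called (0.31, adjusted p = 0.162, and 1.22, adjusted p = 0.347). Cacna1d, a voltage-gated calcium channel of these cells, fell by 0.36 (SE 0.10, adjusted p = 0.0144). That call was lost without WKY array 2 (adjusted p = 0.0504), without SHR array 2 (adjusted p = 0.063) or after normexp background correction (-0.13, adjusted p = 0.149). Among zone markers, Dlk1 rose by 0.53 ± 0.11 (adjusted p = 0.00191) and the Wnt target Axin2 by 0.45 ± 0.12 (adjusted p = 0.0141), the latter not called on the arrays labelled SHRSP (-0.047). The receptor for angiotensin II differed by isoform. Agtr1a was at -0.43, -0.48 and -0.51 in WKY and at -0.31, -0.25 and -0.33 in SHR (0.18, adjusted p = 0.213). Agtr1b, the isoform typical of the rat adrenal cortex, was at 1.53, 1.22 and 1.39 in WKY and at 0.60, 1.02 and 0.76 in SHR (-0.58, adjusted p = 0.0317). The 2 isoforms are near-identical in their coding sequence, and how far their probes cross-hybridize was not tested. The call in Agtr1b was lost without WKY array 1 (-0.51, adjusted p = 0.107), WKY array 3 (adjusted p = 0.0675), SHR array 1 (adjusted p = 0.105) or SHR array 3 (adjusted p = 0.0809), and the difference was 0.22 on the arrays labelled SHRSP. Without the slide that held both groups, 6 of the 32 were called higher and none lower. On the arrays labelled SHRSP 9 were higher and 4 lower.

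Of 67 genes of the chromaffin cells 21 rose in SHR and 5 fell (median 0.20), and without the slide that held both groups 10 and 2 did; 3 fell without WKY array 1. Of 9 catecholamine enzymes and cofactor genes, 6 were called higher and 1 lower (median 0.62), and of 17 granule proteins and processing enzymes, 9 were higher and none lower (median 0.59). Th, tyrosine hydroxylase and the rate-limiting step, was at 3.29, 3.48 and 3.27 in WKY and at 4.11, 4.02 and 4.50 in SHR (0.86 ± 0.13, adjusted p = 0.000217, 1.82-fold). Pnmt, which turns noradrenaline into adrenaline, was at 1.77, 2.0 and 2.12 in WKY and at 2.99, 2.82 and 2.96 in SHR (0.96 ± 0.12, adjusted p = 4.92e-05, 1.95-fold). Neither gene overlapped. Gch1, the first enzyme of the tetrahydrobiopterin cofactor, rose by 1.23 ± 0.27 (adjusted p = 0.00348), and Cyb561, which feeds electrons to dopamine beta-hydroxylase inside the granule, by 0.68 ± 0.09 (adjusted p = 8.72e-05). Dbh itself was at 2.18, 2.22 and 2.18 in WKY and at 2.83, 2.67 and 2.94 in SHR (0.62 ± 0.17, adjusted p = 0.0157). The call was lost without SHR array 3 (0.55, adjusted p = 0.0612) and without the slide that held both groups (0.65, adjusted p = 0.152). Ddc, the decarboxylase between the Th and Dbh steps, moved the other way, from 2.55, 2.61 and 2.80 in WKY to 2.34, 2.27 and 2.14 in SHR (-0.41 ± 0.084, adjusted p = 0.00233), and was not called on the arrays labelled SHRSP (-0.11).

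Among granule genes, Chgb, chromogranin B, was at 5.15, 5.14 and 5.24 in WKY and at 5.99, 6.04 and 6.10 in SHR (0.87 ± 0.10, adjusted p = 1.81e-05). Cpe, the carboxypeptidase that trims peptide hormones, rose by 1.03 ± 0.071 (adjusted p = 2.43e-07), Chga by 0.85 ± 0.19 (adjusted p = 0.00386), Scg2 by 0.80 ± 0.094 (adjusted p = 2.83e-05) and Scg5 by 0.59 ± 0.12 (adjusted p = 0.00242). The neuropeptide gene Vip had the largest rise of the list, from -5.45, -4.90 and -5.21 to -3.63, -2.66 and -3.41 (1.96 ± 0.21, adjusted p = 1.54e-05, 3.89-fold). Of 12 genes of exocytosis none was called higher and 2 were lower. Vamp2, a membrane fusion protein, fell by 0.58 (SE 0.12, adjusted p = 0.00301), and Rab3a differed by -0.62 (adjusted p = 0.0325), a call lost without WKY array 1 (adjusted p = 0.0667), WKY array 3 (adjusted p = 0.134), SHR array 2 (adjusted p = 0.0902) or SHR array 3 (adjusted p = 0.0795). The vesicle transporter Slc18a1 rose by 0.40 ± 0.10 (adjusted p = 0.00978) and the breakdown enzyme Maoa by 0.48 ± 0.10 (adjusted p = 0.00191). Slc22a3, which takes catecholamines up outside neurons, fell by 1.20 (adjusted p = 0.00964), or by 0.93 with an adjusted p of 0.0501 without WKY array 1. Hand2 and Gata3, transcription factors of the sympathoadrenal lineage, rose by 0.99 ± 0.15 (adjusted p = 0.000189) and 0.69 ± 0.12 (adjusted p = 0.000759). Under the label SHRSP, 4 of the 9 enzyme genes and 10 of the 17 granule genes were called higher, with 0.95 in Th, 1.02 in Pnmt and 0.82 in Chgb. Of 8 markers of the medulla 7 were higher, with a summed signal (in units of the 75th percentile) of 70.9 to 78.1 in WKY and 123 to 147 in SHR, and of 8 markers of the cortex 4 were higher, with sums of 683 to 792 and 811 to 886. The part of tissue makeup in these rises was not tested.

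Genes of cell division fell across the list in SHR at 6 weeks. Of 105 genes tested, 69 were called lower and 9 higher, with a median difference of -0.82. Entry into and passage through mitosis depends on cyclin B and its kinase, on the spindle motors and on the kinetochore, which ties chromosomes to the spindle. Of 36 genes of the spindle, kinetochore and division, 29 were lower and none higher (median -1.11). Of 28 genes of DNA replication 21 were lower and 1 higher (median -0.77), and of 25 cyclins, kinases and their transcription factors 14 were lower and 2 higher (median -0.98). With each array left out in turn, the count of lower genes in the mitotic group stayed between 25 and 29, and with quantile normalization it was 28. Without the slide that held both groups, 28 mitotic and 10 replication genes were lower.

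Spc25, a kinetochore protein of the NDC80 complex, was at -1.26, -1.15 and -0.63 in WKY and at -2.83, -2.43 and -2.86 in SHR (-1.70 ± 0.24, adjusted p = 0.000137, 3.24-fold). Kif20b, a kinesin of cytokinesis, was at -3.59, -3.45 and -3.32 in WKY and at -5.40, -4.87 and -5.12 in SHR (-1.68 ± 0.22, adjusted p = 6.81e-05). Ccnb1, cyclin B1, was at -2.38, -2.39 and -1.89 in WKY and at -3.74, -3.84 and -3.95 in SHR (-1.63 ± 0.23, adjusted p = 0.000137). In all 3 genes every SHR array lay below every WKY array. The spindle checkpoint kinase gene Ttk fell by 1.49 (SE 0.24, adjusted p = 0.000405), the microtubule-binding Ckap2 by 1.43 (SE 0.23, adjusted p = 0.000376), the mitotic kinase Aurka by 0.99 (SE 0.12, adjusted p = 3.77e-05) and topoisomerase Top2a by 1.26 (SE 0.27, adjusted p = 0.00284). Mybl2, a transcription factor that drives mitotic genes, fell by 1.46 (SE 0.17, adjusted p = 3.05e-05). In replication, Gins2 and Cdc45, parts of the replicative helicase, fell by 1.33 (SE 0.15, adjusted p = 2.09e-05) and 1.05 (SE 0.15, adjusted p = 0.000173). Mcm2 and Mcm7, subunits of the same helicase ring, went opposite ways. Mcm2 fell by 1.02 (SE 0.14, adjusted p = 0.000146), and Mcm7 rose from -0.16, -0.12 and -0.027 to 0.57, 0.64 and 0.57 (0.69 ± 0.076, adjusted p = 1.76e-05).

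Among 16 inhibitors and other brakes of the cycle, 6 were higher and 5 lower. Gadd45b, a stress-induced growth arrest gene, rose by 1.48 ± 0.19 (adjusted p = 5.96e-05), and Cdkn1c, the imprinted inhibitor p57, was at 2.24, 2.25 and 2.62 in WKY and at 3.45, 3.18 and 3.20 in SHR (0.90 ± 0.15, adjusted p = 0.000454). Ccng2 fell by 0.91 (SE 0.11, adjusted p = 3.95e-05), Cdkn2c by 0.76 (SE 0.10, adjusted p = 9.21e-05) and Cdkn1b by 0.48 (SE 0.081, adjusted p = 0.000532), so the brakes did not move together. On the arrays labelled SHRSP at 6 weeks, 46 of the 105 were lower and 7 higher than WKY (median -0.51), with -1.07 in Spc25, -0.66 in Kif20b and -0.87 in Ccnb1. At 3 weeks, 11 of the 105 were lower and 2 higher on the arrays labelled SHR (median -0.22), where 9.2% of all genes were lower and 9.02% higher than WKY. On those labelled SHRSP 6 were lower and 10 higher (median 0.18), against 11.4% and 14.8% of all genes.

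The promoters of 4 of these genes are shown because each holds the letters of both motifs that mitotic promoters often share, a CCAAT box and a cell cycle homology element of the form TTTGAA or TTTAAA; they were chosen for that after the search. RefSeq promoters of the GRCr8 build were searched on both strands over the 250 bases before the start, which do not overlap the transcript. Of the 25 lower mitotic genes with a promoter in the tables, 18 (72.0%) held TTTGAA or TTTAAA and 18 (72.0%) held CCAAT, against 25.4% and 34.0% of all 33469 promoters. Of the 7 mitotic genes that were not called, 6 held the element and 7 held the box. TTTGAA alone was in 16.2% of all promoters. The elements and the box are in capitals, and a box on the other strand reads ATTGG.

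Spc25 promoter, GRCr8 chr3:74396719-74396968, minus strand: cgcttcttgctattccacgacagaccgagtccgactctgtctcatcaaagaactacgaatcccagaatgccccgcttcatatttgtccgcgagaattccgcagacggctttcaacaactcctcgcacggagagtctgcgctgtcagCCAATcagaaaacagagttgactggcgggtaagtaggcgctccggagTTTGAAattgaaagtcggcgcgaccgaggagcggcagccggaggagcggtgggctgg

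Kif20b promoter, GRCr8 chr1:241840766-241841015, plus strand: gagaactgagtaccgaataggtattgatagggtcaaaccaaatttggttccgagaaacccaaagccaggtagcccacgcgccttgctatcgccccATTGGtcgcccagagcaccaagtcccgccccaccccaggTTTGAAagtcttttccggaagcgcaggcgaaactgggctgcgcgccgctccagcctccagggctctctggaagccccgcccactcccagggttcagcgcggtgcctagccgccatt

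Ckap2 promoter, GRCr8 chr16:76541864-76542113, plus strand: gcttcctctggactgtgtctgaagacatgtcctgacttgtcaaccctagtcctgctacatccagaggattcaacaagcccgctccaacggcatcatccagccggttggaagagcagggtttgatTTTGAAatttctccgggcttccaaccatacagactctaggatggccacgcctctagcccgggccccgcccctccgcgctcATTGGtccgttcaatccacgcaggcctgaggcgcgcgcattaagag

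Ccnb1 promoter, GRCr8 chr2:33655226-33655475, minus strand: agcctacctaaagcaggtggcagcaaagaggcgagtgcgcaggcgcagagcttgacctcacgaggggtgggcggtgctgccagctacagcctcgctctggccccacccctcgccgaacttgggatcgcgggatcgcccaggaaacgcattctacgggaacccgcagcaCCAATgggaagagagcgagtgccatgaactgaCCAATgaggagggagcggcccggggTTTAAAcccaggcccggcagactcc

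The elements lay 57 bases before the start in Spc25, 116 in Kif20b, 126 in Ckap2 and 25 in Ccnb1, where a pair of CCAAT boxes lay 82 and 50 bases before it. A match is a description of these letters, not of binding.

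Chaperones of the cytosol rose in SHR. These proteins fold and refold others, and heat shock factor HSF1 switches many of them on through heat shock elements, inverted repeats of the unit GAA. Of 35 cytosolic chaperone genes 22 were called higher and none lower (median 0.49), and 18 to 22 were higher with each array left out in turn. Hspb8, a small heat shock protein of chaperone-assisted autophagy, was at -4.99, -5.20 and -4.36 in WKY and at -1.58, -1.48 and -1.31 in SHR (3.39 ± 0.26, adjusted p = 6.35e-07). Dnaja1, a J-domain partner of HSP70, was at 2.67, 2.91 and 3.09 in WKY and at 4.29, 4.11 and 4.16 in SHR (1.30 ± 0.13, adjusted p = 6.15e-06, 2.46-fold). Hsph1, the HSP110 exchange factor, was at -2.35, -1.84 and -2.11 in WKY and at -0.78, -0.74 and -0.85 in SHR (1.31 ± 0.15, adjusted p = 1.99e-05). None of these overlapped. Dnajb4, another J-domain gene, rose by 1.08 ± 0.11 (adjusted p = 8.93e-06), and Chordc1, a partner of HSP90, by 0.98 ± 0.12 (adjusted p = 4.45e-05). Hspa8, the constitutive HSC70, differed by 0.49 (adjusted p = 0.0176), a call lost with quantile normalization (adjusted p = 0.067), without WKY array 1 (adjusted p = 0.0597) or without SHR array 1 (adjusted p = 0.0731). The other Hspa8 probes were also called higher, by 0.58 (adjusted p = 0.00126), 0.84 (adjusted p = 0.00461) and 0.78 (adjusted p = 0.0125). They were not fitted one by one under those settings. Hsf1 was at -0.27, -0.31 and -0.10 in WKY and at -0.12, -0.26 and -0.26 in SHR (0.014, adjusted p = 0.918).

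The chaperone rise was smaller under the other label. On the arrays labelled SHRSP at 6 weeks, 10 of the 35 were called higher than WKY and 1 lower (median 0.083). The direct difference of SHRSP minus SHR was -1.42 ± 0.13 in Dnaja1 (adjusted p = 7.91e-06) and -1.18 ± 0.12 in Chordc1 (adjusted p = 2.55e-05), and neither differed from WKY by a called amount there (-0.12 and -0.20). Hspb8 stayed 2.51 above WKY. In the endoplasmic reticulum, 10 of 28 chaperones and stress sensors were higher and 1 lower (median 0.17), where 16.2% and 13% of all genes were. The higher ones numbered 6 with quantile normalization, 5 without WKY array 2, 6 without SHR array 1 and 5 without the slide that held both groups. Dnajb9, a J-domain protein of that compartment, rose by 0.86 ± 0.15 (adjusted p = 0.000872), Dnajc3 by 0.49 ± 0.075 (adjusted p = 0.000261), and the stress transcription factor Atf4 by 0.70 ± 0.15 (adjusted p = 0.00364), while Atf4 was 0.45 lower than WKY under the label SHRSP. Of 7 mitochondrial chaperones 1 was called.

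The sequences below belong to these genes. The probes of Hspb8 and Dnaja1 cross exon junctions, and their sequence is what the array measured, in lower case with no capitals:

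Hspb8 probe, rn4 chr12:41414450-41420599, plus strand: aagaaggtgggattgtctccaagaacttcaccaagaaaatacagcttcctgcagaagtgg

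Dnaja1 probe, rn4 chr5:58110714-58111203, plus strand: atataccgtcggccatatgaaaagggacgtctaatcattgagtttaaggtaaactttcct

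The promoters of Hspa8 and Hsph1 are the ones among the higher cytosolic chaperones that held a heat shock element of 3 units (GAA and TTC in turn, each 2 bases from the next, on either strand) in the 250 bases before the start, and the elements are in capitals:

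Hspa8 promoter, GRCr8 chr8:50080264-50080513, plus strand: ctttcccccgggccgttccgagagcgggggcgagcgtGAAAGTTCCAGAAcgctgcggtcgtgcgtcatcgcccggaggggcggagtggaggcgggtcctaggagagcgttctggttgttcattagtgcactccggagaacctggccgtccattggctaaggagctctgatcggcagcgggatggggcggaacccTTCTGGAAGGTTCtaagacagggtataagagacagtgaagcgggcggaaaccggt

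Hsph1 promoter, GRCr8 chr12:10427118-10427367, plus strand: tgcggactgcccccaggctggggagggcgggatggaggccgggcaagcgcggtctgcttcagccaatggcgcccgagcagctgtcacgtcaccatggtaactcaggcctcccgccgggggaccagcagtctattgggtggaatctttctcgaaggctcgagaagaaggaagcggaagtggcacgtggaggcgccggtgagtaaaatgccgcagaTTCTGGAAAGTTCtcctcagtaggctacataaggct

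They lay 213 and 55 bases before the start in Hspa8 and 36 in Hsph1. Such elements were in 2 of 17 higher cytosolic chaperones with a promoter in the tables (11.8%), in 1 of 11 that were not called and in 0.663% of all promoters. The shorter GAANNTTC, which is part of every 3-unit element, was in 9 of 17 (52.9%), 3 of 11 (27.3%) and 7.23% of all promoters.

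**Figure D4:**
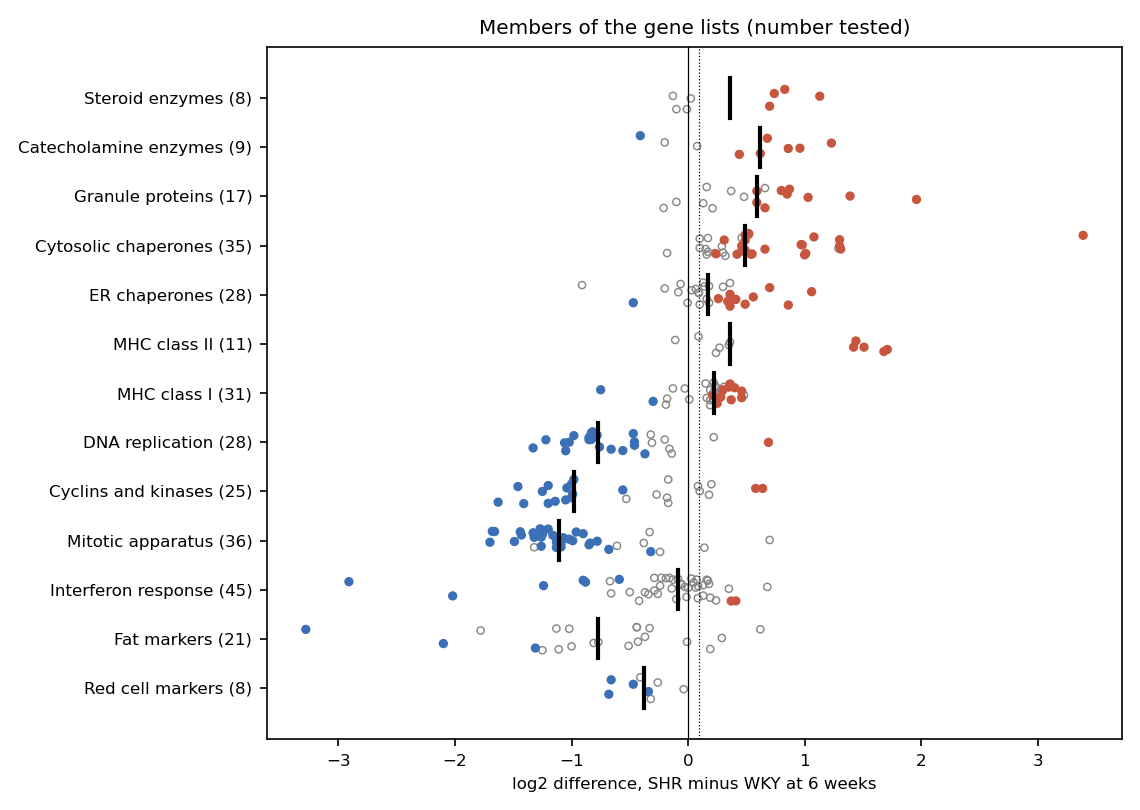
Log2 difference of SHR minus WKY at 6 weeks (x axis) of every tested member of 13 gene lists (y axis, number tested in brackets), red where called higher, blue where called lower and open where not called, with a thick bar at each list's median and a dotted line at the median of all genes (0.093). The replication, cyclin and mitotic lists lie left of 0 with medians of -0.77, -0.98 and -1.11, and the cytosolic chaperones lie right with a median of 0.49.

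The MHC class II chains and their regulator rose in SHR, and few interferon-response genes were called higher. Class II molecules show peptides to helper T cells, and the transcription factor CIITA controls them. Of 11 class II genes 5 were higher and none lower (median 0.36), and 5 were higher with each array left out in turn. RT1-Db1, the beta chain of the rat DR-type molecule, was at -1.01, -1.50 and -1.23 in WKY and at 0.25, 0.41 and 0.73 in SHR (1.71 ± 0.19, adjusted p = 1.94e-05, 3.27-fold). RT1-Da, RT1-Bb and the invariant chain Cd74 rose by 1.44, 1.51 and 1.42, and Ciita itself by 1.68 ± 0.20 (adjusted p = 3.02e-05). The RT1 haplotype differs between inbred strains, and the effect of sequence differences under these probes was not tested. Ciita differed from WKY by -0.16 on the arrays labelled SHRSP (adjusted p = 0.648), where RT1-Db1 was 0.95 higher (adjusted p = 0.00205). Among class I genes the count depended on the setting. Of 31, 10 were higher and 2 lower (median 0.22). The higher ones numbered 19 with the slide as a block and 16 with the scan day as a block, but 1 with quantile normalization, 1 without the slide that held both groups, 4 without WKY array 2, 4 without SHR array 2 and 3 without SHR array 3. Erap1, a peptide trimmer, rose by 0.46 ± 0.065 (adjusted p = 0.00015) and B2m by 0.40 ± 0.081 (adjusted p = 0.00197), and RT1-N3 fell by 0.75 (SE 0.14, adjusted p = 0.00131). Of 45 interferon-response genes 2 were higher and 6 lower (median -0.087), where 16.2% and 13% of all genes were. Without SHR array 3, 1 was higher. Ifi44l was at -3.10, -3.43 and -3.51 in WKY and at -6.46, -6.13 and -6.18 in SHR (-2.91 ± 0.13, adjusted p = 4.45e-09, 7.52-fold), and the chemokine Cxcl10 fell by 2.02 (SE 0.31, adjusted p = 0.000233).

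Genes of the renin-angiotensin system and of blood pressure control held a few large strain differences and many small ones. Of 68 tested, 7 were higher and 11 lower (median 0.074), where 16.2% and 13% of all genes were. Among vasoactive peptides, Nppc, which encodes C-type natriuretic peptide, was below background in SHR (-9.61, -9.60 and -7.34) and at -6.96, -6.14 and -6.32 in WKY, at least 1.98-fold lower (-2.38 ± 0.48, adjusted p = 0.00212). Ramp3, which turns the calcitonin receptor-like receptor into an adrenomedullin receptor, rose by 0.74 ± 0.13 (adjusted p = 0.000652) and was 0.061 from WKY under the label SHRSP (adjusted p = 0.813). Slc12a3, the thiazide-sensitive salt transporter, fell by 0.78 (SE 0.14, adjusted p = 0.000802) on 1 of its probes, and the other was not called (-0.012, adjusted p = 0.964). Agt, which encodes angiotensinogen, was at 1.70, 0.82 and 0.41 in WKY and at -0.51, 0.27 and 0.87 in SHR, and the groups overlapped (-0.77, adjusted p = 0.148). Of 18 genes linked to the hypertensive strains in earlier work, 2 were higher and 5 lower. Cd36, the fatty acid translocase known as a defective gene of SHR, was at 5.02, 5.04 and 5.13 in WKY and at 3.10, 3.76 and 3.66 in SHR (-1.55 ± 0.15, adjusted p = 6.25e-06, 2.94-fold). The fall was not seen at 3 weeks, as given with the ages below, and its link to that defect was not tested. Endog, a mitochondrial nuclease tied to heart mass, was at -0.056, -0.38 and -0.26 in WKY and at -2.10, -2.17 and -2.40 in SHR (-1.99 ± 0.13, adjusted p = 1.05e-07). Folr1, the folate receptor, went the other way, from -1.98, -1.46 and -1.78 to 0.67, 0.86 and 0.86 (2.54 ± 0.16, adjusted p = 9.76e-08, 5.81-fold). Cd36, Endog and Folr1 kept their direction on the arrays labelled SHRSP, with -1.24, -1.70 and 2.84. Gstm1, a glutathione transferase linked to the stroke-prone strain, was not called (-0.30, adjusted p = 0.0851).

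Cholesterol feeds steroid synthesis. An uptake receptor and a carrier rose in SHR, and a protein of the droplets that store its esters fell. Of 42 cholesterol genes 12 were higher and 4 lower (median 0.10), and 7 and 1 without the slide that held both groups; 2 were lower without SHR array 2 or SHR array 3. Scarb1, the receptor that takes up HDL cholesterol for the rat adrenal, was at 4.51, 5.11 and 5.20 in WKY and at 5.87, 5.93 and 6.32 in SHR (1.1 ± 0.17, adjusted p = 0.000271). Stard4, a carrier of cholesterol in the cytosol, was at 0.48, 0.60 and 0.67 in WKY and at 3.01, 2.93 and 2.83 in SHR (2.34 ± 0.11, adjusted p = 6.08e-09, 5.05-fold), but it crossed between the labels SHR and SHRSP with age and was 0.52 lower than WKY under the label SHRSP (adjusted p = 0.00235). Plin2, the coat protein of lipid droplets, was at 5.23, 5.02 and 4.82 in WKY and at 3.98, 3.82 and 3.81 in SHR (-1.15 ± 0.13, adjusted p = 1.98e-05). Every SHR array was below every WKY array. Synthesis genes split. Acat2 rose by 1.49 ± 0.20 (adjusted p = 0.0001) on the probe with the higher signal and was not called on the other (-0.16, adjusted p = 0.573). Cyp51 rose by 0.66 ± 0.16 (adjusted p = 0.00572) and Idi1 by 0.75 ± 0.19 (adjusted p = 0.00794), whereas Sqle fell by 0.72 (SE 0.17, adjusted p = 0.00592). Idi1 was 0.54 lower than WKY under the label SHRSP (adjusted p = 0.0478), where 7 cholesterol genes were higher and 13 lower. Of 40 fatty acid genes 10 were higher and 5 lower, where 16.2% and 13% of all genes were. Quantile normalization made these counts 5 and 7, and 3 were lower without WKY array 1 or SHR array 3. Elovl6, which lengthens saturated fatty acids, rose by 1.21 ± 0.20 (adjusted p = 0.000476), and Fabp6, a binding protein of bile acids and fatty acids, fell from 1.97, 1.12 and 1.54 to -0.59, -0.29 and -0.99 (-2.17 ± 0.22, adjusted p = 9.99e-06). Me1, the malic enzyme that supplies NADPH for lipid synthesis, was at 5.87, 6.08 and 6.10 in WKY and at 3.58, 4.15 and 4.26 in SHR (-2.02 ± 0.18, adjusted p = 3.38e-06, 4.06-fold). By the rule that takes the called genes with the highest signal, it was the fall among abundant genes that reached 4-fold.

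The clock genes changed in opposite arms. In the molecular clock, BMAL1 with CLOCK or NPAS2 drives the Per and Cry genes, whose proteins inhibit it, so that the arms peak at different hours. Of 18 genes 6 were higher and 3 lower. Npas2 was at 0.99, 1.08 and 0.46 in WKY and at -1.71, -1.71 and -1.73 in SHR (-2.56 ± 0.14, adjusted p = 2.94e-08, 5.9-fold). A second Npas2 probe was not called (-0.051, adjusted p = 0.878). Bmal1 fell from 0.42, 0.23 and -0.034 to -1.67, -1.46 and -1.56 (-1.77 ± 0.16, adjusted p = 3.9e-06). Cry1 rose by 1.59 ± 0.16 (adjusted p = 9.28e-06), Per2 by 1.55 ± 0.24 (adjusted p = 0.000275) and Tef, an output factor, by 0.79 ± 0.15 (adjusted p = 0.00144). Differences from WKY had the same signs on the arrays labelled SHRSP, -3.34 in Npas2, -2.61 in Bmal1, 2.42 in Cry1 and 1.74 in Per2. Whether the hour of killing differed between the groups was not tested. Among 32 immediate early genes 3 were higher and 8 lower (median -0.39), and the lower ones numbered 6 to 13 with an array left out, 13 of them without SHR array 3. Fos was at -3.64, -2.19 and -2.89 in WKY and at -6.0, -6.27 and -4.24 in SHR (-2.60 ± 0.47, adjusted p = 0.000954), and Arc fell by 1.03 (SE 0.17, adjusted p = 0.000565). Ier3 rose by 2.38 ± 0.25 (adjusted p = 1.29e-05) and Maff by 1.60 ± 0.25 (adjusted p = 0.000341), so the list did not move as one. Of 21 glucocorticoid-response genes 5 were higher and 4 lower. With an array left out 1 to 3 were lower (1 without WKY array 2 or SHR array 1, 2 without WKY array 1), and 3 were higher without SHR array 1 or SHR array 3. Fkbp5, a chaperone of the glucocorticoid receptor and one of its targets, was at 0.24, 0.52 and 0.63 in WKY and at 1.45, 1.50 and 1.40 in SHR (0.98 ± 0.11, adjusted p = 1.5e-05), and it was not called under the label SHRSP (-0.21, adjusted p = 0.193).

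Matrix and growth genes included some of the largest rises among well-expressed genes. Spp1, osteopontin, a secreted phosphoprotein of matrix and macrophages, was at 2.83, 2.65 and 2.57 in WKY and at 5.81, 5.54 and 5.53 in SHR (2.95 ± 0.16, adjusted p = 3.47e-08, 7.71-fold). Nid1, nidogen, a linker of basement membranes, was at -1.48, -1.70 and -1.84 in WKY and at 0.83, 0.15 and 0.63 in SHR (2.21 ± 0.17, adjusted p = 6.84e-07, 4.62-fold). Both were also high under the label SHRSP (3.31 and 2.88). Lamb1, a laminin chain of the same membranes, rose by 1.20 ± 0.18 (adjusted p = 0.000234), and Col4a2 by 0.74 ± 0.14 (adjusted p = 0.00103). The fibrillar collagen chains Col5a3 and Col5a1 fell by 1.51 (SE 0.18, adjusted p = 2.9e-05) and 0.80 (SE 0.11, adjusted p = 0.000122), and the protease Mmp14 by 0.72 (SE 0.11, adjusted p = 0.000279). Of 64 matrix genes in all, 9 were higher and 9 lower, where 16.2% and 13% of all genes were. Of 22 growth and imprinted genes 4 were higher and none lower. Igf1, insulin-like growth factor 1, was at 4.20, 3.62 and 3.90 in WKY and at 5.56, 4.41 and 5.18 in SHR (1.15 ± 0.24, adjusted p = 0.00269), and the growth hormone receptor gene Ghr rose by 0.69 ± 0.16 (adjusted p = 0.00454) on 1 of 3 probes. The other Ghr probes were not called (-0.071, adjusted p = 0.76, and 0.069, adjusted p = 0.747), and the call was lost with the mean over all probes and without the slide that held both groups.

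Ion channels and antioxidant genes changed in single members. Of all genes tested, 16.2% were higher and 13% lower. Of 51 potassium channel genes 9 were higher and 2 lower (1 lower without WKY array 2, WKY array 3, SHR array 2 or SHR array 3). Kcnt1, a sodium-activated channel, rose by 1.60 ± 0.23 (adjusted p = 0.000192), and Kcnmb2, a subunit that inactivates the BK channel of chromaffin cells, by 0.69 ± 0.11 (adjusted p = 0.000348). Of 38 sodium, calcium and nicotinic channel genes 4 were higher and 6 lower (3 lower without SHR array 2). The L-type channel Cacna1c rose by 0.77 ± 0.12 (adjusted p = 0.000309) and Scn4b, a sodium channel subunit, by 1.27 ± 0.11 (adjusted p = 2.61e-06), whereas Cacna2d1 fell by 0.64 (SE 0.12, adjusted p = 0.00122). Of 49 glutathione and antioxidant genes 12 were higher and 3 lower (1 lower without WKY array 1, WKY array 3 or SHR array 3, and 6 with quantile normalization). Gstt3, a glutathione transferase, was at 1.07, 0.69 and 1.16 in WKY and at 3.04, 3.09 and 2.94 in SHR (2.05 ± 0.11, adjusted p = 3.47e-08, 4.14-fold). The superoxide dismutases Sod3 and Sod2 rose by 0.75 ± 0.13 (adjusted p = 0.000655) and 0.60 ± 0.12 (adjusted p = 0.00146), and Nfe2l2, the NRF2 regulator of such genes, by 0.67 ± 0.12 (adjusted p = 0.000976). In the respiratory chain 6 of 64 genes were higher and none lower (median 0.065), but with quantile normalization 1 was higher and 5 lower, and none was called without the slide that held both groups. With single arrays left out, 2 to 7 were higher (2 without SHR array 1 and 3 without 4 of the other arrays). Among abundant genes, the ribosomal protein gene Rpl6 rose by 0.33 ± 0.071 (adjusted p = 0.00331). Eef1a1, an elongation factor of translation, differed by 0.26 (adjusted p = 0.0131), or by 0.091 with quantile normalization (adjusted p = 0.373) and by 0.21 without SHR array 1 (adjusted p = 0.054).

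Markers of cells that could be in the gland or attached to it were also compared, where 16.2% of all genes were higher and 13% lower. Fat markers were high on 1 WKY array and low on 1 SHR array. Ucp1, the heat-making uncoupling protein of brown adipocytes, lay at 5.36, 4.76 and 3.67 in WKY and at -0.82, 2.58 and 2.20 in SHR (-3.28 ± 0.78, adjusted p = 0.00581). Adipoq, adiponectin, was at 2.86, 2.21 and 2.15 in WKY and at 0.12, 1.35 and 1.83 in SHR (-1.31, adjusted p = 0.0187), a call lost without WKY array 1 (adjusted p = 0.0813) or SHR array 1 (adjusted p = 0.0769). Of 21 fat markers 3 were lower and none higher (median -0.77), with summed signals of 75.9 to 156 in WKY and 56.1 to 81.6 in SHR, which overlapped. Lower markers numbered 9 without the slide that held both groups, 7 with the slide as a block or with quantile normalization, 7 without WKY array 3, 8 without SHR array 3, and 2 without WKY array 1 or SHR array 1. Of 8 red cell markers 4 were lower and none higher (median -0.38), with sums of 204 to 239 in WKY and 165 to 173 in SHR, and 1 was lower without WKY array 1, 1 without SHR array 3 and 2 without SHR array 2. Markers of liver and kidney had 3 higher and 3 lower of 21. Their sums of 12 to 16.5 in WKY and 2.4 to 3.24 in SHR followed Serpinc1, while albumin (Alb, -0.22) and transferrin (Tf, 0.20) were not called. The part of fat, blood or other attached tissue in the differences above was not tested.

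Among immune and vessel markers, Lyz2, lysozyme of macrophages, rose by 1.09 ± 0.15 (adjusted p = 0.000106), and Msr1, a scavenger receptor of the same cells, fell by 1.48 (SE 0.18, adjusted p = 3.52e-05). Of 21 macrophage markers 4 were higher and 2 lower, where 16.2% and 13% of all genes were. The higher ones numbered 7 without WKY array 1, 1 without WKY array 2, 2 without WKY array 3 and 1 without SHR array 3. Summed signals of the macrophage markers were 24.3 to 33.4 in WKY and 43.9 to 49.1 in SHR, with no overlap. The part of macrophages in the class II and Spp1 rises was not tested. Of 14 lymphocyte markers 2 were higher and 4 lower (1 higher without WKY array 3, SHR array 2 or SHR array 3). Zap70, a T cell kinase, rose by 0.92 ± 0.11 (adjusted p = 2.57e-05), and the B cell marker Cd79b fell by 1.57 (SE 0.33, adjusted p = 0.00267). Of 23 endothelial markers 5 were higher and 3 lower. The higher ones numbered 3 without WKY array 2 or SHR array 1 and 8 with the slide as a block, and 1 was lower without WKY array 1. Cldn5, a tight junction protein, fell by 1.26 (SE 0.15, adjusted p = 3.04e-05), while Pecam1 rose by 0.43 ± 0.081 (adjusted p = 0.00112). Of 17 markers of fibroblasts and capsule 2 were lower and none higher (0 to 4 lower with an array left out, 0 without WKY array 2 and 4 without WKY array 3), and of 15 of Schwann cells and nerve 2 were higher (1 without WKY array 1, WKY array 2, SHR array 1 or SHR array 3). Nefh, a neurofilament also found in chromaffin cells and nerve, was at -4.05, -3.71 and -3.40 in WKY and at -1.54, -1.90 and -1.83 in SHR (1.96 ± 0.14, adjusted p = 4.46e-07).

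The arrays labelled SHRSP were then set directly against those labelled SHR at 6 weeks, to see where a difference from WKY was not shared by both labels. In that contrast 3113 of 20847 genes were called (14.9%), 1405 higher in SHRSP (6.74%) and 1708 lower (8.19%). It shares the SHR arrays with the main comparison. Genes that differed from both WKY and SHRSP, with no overlap, included 3 falls in SHR described above (Serpinc1, Agtrap and Ephx2, 9.63, 5.35 and 4.75 higher in SHRSP). Uts2, which encodes the vasoactive peptide urotensin 2, was at -0.10, -0.62 and 1.14 in WKY and at -1.99, -2.64 and -2.15 in SHR (-2.40 ± 0.41, adjusted p = 0.000598), and it was 4.08 ± 0.41 higher in SHRSP than in SHR (adjusted p = 2.19e-05). Sbk2, a kinase gene, fell under both labels but further in SHRSP, which was 3.11 below SHR (SE 0.29, adjusted p = 1.25e-05). The other Sbk2 probe was not called for SHR against WKY (-0.50, adjusted p = 0.319). Ell2, an elongation factor of transcription, was at -2.47, -1.64 and -0.94 in WKY and at 1.05, 1.06 and 1.22 in SHR (2.80 ± 0.32, adjusted p = 2.39e-05), and SHRSP was 2.99 below SHR (SE 0.32, adjusted p = 3.28e-05). Hes1, a target of Notch, rose by 1.45 ± 0.34 (adjusted p = 0.00569) in SHR and was 1.41 below WKY in SHRSP (adjusted p = 0.00782). Fosl1, an AP-1 factor, rose by 2.55 (adjusted p = 0.0222), a call lost without WKY array 1 (adjusted p = 0.104), WKY array 2 (adjusted p = 0.0688), SHR array 1 (adjusted p = 0.0544) or SHR array 3 (adjusted p = 0.0775).

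The same strains were measured at 3 weeks, and the change of the strain difference with age was tested as an interaction. By the labels, 1211 genes were called in that test (5.81%), 709 with a higher (3.4%) and 502 with a lower (2.41%) difference at 6 weeks. With the arrays labelled SHRSP at 3 weeks in place of those labelled SHR, a choice made after the label pattern was seen, 417 were called (2%), 135 higher (0.648%) and 282 lower (1.35%). Of the 6079 genes called at 6 weeks, 2406 (39.6%) were also called between the arrays labelled SHR and WKY at 3 weeks, which is 63.3% of the 3799 calls there (18.2% of genes tested), and 96.4% of them had the same sign. Against the arrays labelled SHRSP at 3 weeks the shared calls were 3265, which is 53.7% of the calls at 6 weeks and 59.8% of the 5462 calls there (26.2%), with 98.6% of the same sign. The ages share no arrays, but the counts at 3 weeks share the WKY arrays of that age.

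Spp1 and Nid1 grew apart with age under either reading of the labels. The change was 1.91 ± 0.23 in Spp1 (adjusted p = 0.00051) and 1.46 ± 0.24 in Nid1 (adjusted p = 0.00409), and with the arrays labelled SHRSP at 3 weeks it was 1.95 (adjusted p = 0.00192) and 1.30 (adjusted p = 0.0162). Cd36 differed by -0.051 at 3 weeks (adjusted p = 0.882) and changed by -1.50 ± 0.21 (adjusted p = 0.00143), or -1.63 with the other label (adjusted p = 0.00312). Bmal1 changed by -1.05 ± 0.23 (adjusted p = 0.0194), or -1.18 (adjusted p = 0.0197), and Spc25 by -1.26 ± 0.34 (adjusted p = 0.0437), or -1.69 (adjusted p = 0.0221). The change was called under both readings in these 5 genes. In Cyp11b2 it was called only by the labels as given, 1.0 ± 0.18 (adjusted p = 0.00638) against 0.60 (adjusted p = 0.103), and likewise in Pnmt, 0.83 ± 0.17 (adjusted p = 0.0136) against 0.24 (adjusted p = 0.556), in Cyp11b1, 0.64 ± 0.12 (adjusted p = 0.00798) against 0.44 (adjusted p = 0.0785), and in Nr0b1, -1.81 ± 0.29 (adjusted p = 0.00361) against -0.63 (adjusted p = 0.294). Ccnb1 went the other way, -1.17 ± 0.32 (adjusted p = 0.0501) against -1.64 (adjusted p = 0.0209). Oxnad1 (0.80, adjusted p = 0.571) and Apln (0.24, adjusted p = 0.782) had like differences at both ages.

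**Figure D5:**
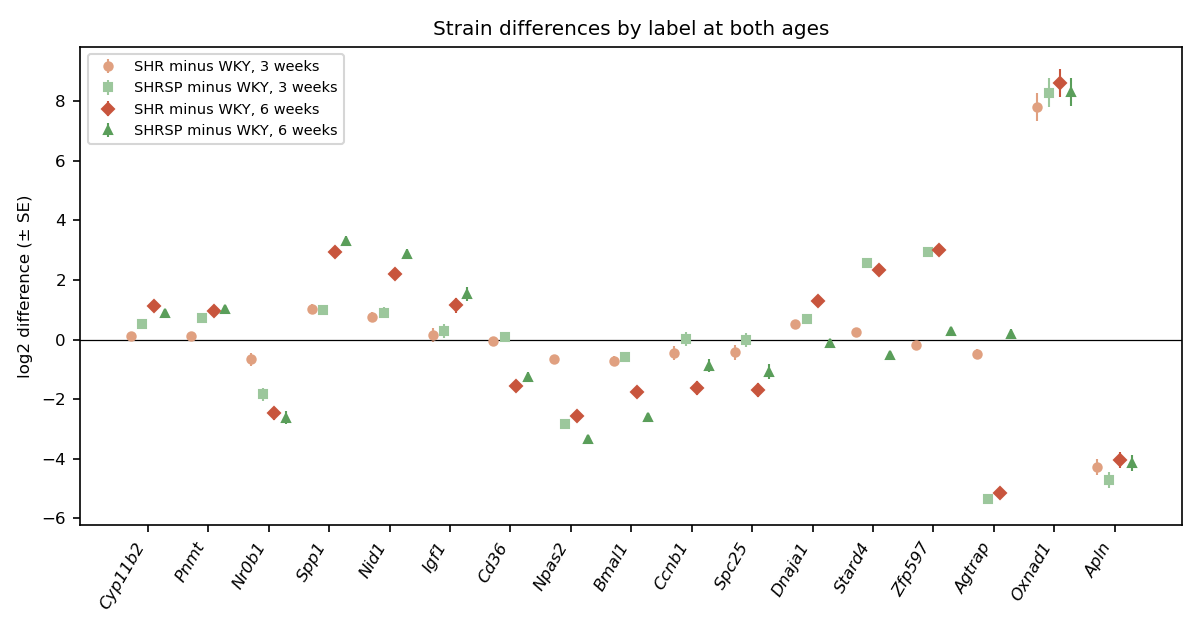
Log2 difference from WKY of the same age (y axis, ± SE) of 17 genes (x axis) for the arrays labelled SHR and SHRSP at 3 and 6 weeks. Stard4, Zfp597 and Agtrap show the arrays labelled SHR at 6 weeks beside those labelled SHRSP at 3 weeks, Oxnad1 and Apln lie together in all 4 differences, and Spp1 and Nid1 are higher at 6 weeks under both labels.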

How the data were processed

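Gene expression was measured in whole rat adrenal glands on one-colour Agilent arrays, 18 in 6 groups of 3, from oligo-dT-primed, Cy3-labelled cRNA (per the labels' protocols). The deposited values are intensities: per the file headers, Agilent Feature Extraction 10.5.1.1 had subtracted background within each array, and nothing had been scaled between arrays. Here control spots and outlier flags were left out, log2 signals were scaled to each array's 75th percentile and spots of a probe were averaged. Of a gene's probes (30367 in all), the one with the highest mean signal stood for it. Of 26604 gene names, 20849 were tested after a filter on probes near background.

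limma 3.58.1 (R 4.3.3) fitted 6 group means to the 18 arrays, leaving 12 residual degrees of freedom. Benjamini-Hochberg adjustment ran over all genes tested, and a p-value measures only the spread between these arrays. Same-numbered arrays of the 2 groups did not deviate together (r = 0.26, 0.376 and -0.439), so the numbers were not treated as pairs. Named genes were the 12 largest changes each way among called genes without overlap, the 5 smallest adjusted p-values of each role in each list, the genes with the highest signal, those with the largest age or SHRSP differences and some fixed by name (Mki67 was not measured); Vegfb, Tf and Alb were added after their values were seen. A few genes named by this rule are not reported here. The gene lists and members were chosen with earlier results of these data known. Probe coordinates are rn4, as in the files; gene names and promoters came from RefSeq tables (GRCr8), which matched 17492 probes, and 12875 kept the files' names. The fit was tested on simulated data.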

Additional observations from a re-analysis of the deposited data

Results flagged for a closer look

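The change of the SHR minus WKY difference from 3 to 6 weeks was called in 1211 genes, and named genes with the largest changes follow, each with the value when the arrays labelled SHRSP at 3 weeks replace those labelled SHR. Both were tested as interactions in limma.

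In 4 genes that crossed between the labels SHR and SHRSP with age the change was no longer called by that replacement. It was -9.11 ± 1.12 in Serpinc1 (adjusted p = 0.000521) against -0.64 (adjusted p = 0.858), -4.67 ± 0.22 in Agtrap (adjusted p = 3.48e-08) against 0.20 (adjusted p = 0.756), 3.18 ± 0.11 in Zfp597, a zinc finger gene (adjusted p = 6.27e-10), against 0.065 (adjusted p = 0.854), and 2.68 ± 0.17 in Lpar3, a lysophosphatidic acid receptor (adjusted p = 1.59e-06), against 0.24 (adjusted p = 0.56). Zfp296, which was not among the genes at least 4-fold apart between those labels at both ages, changed by 2.32 ± 0.22 (adjusted p = 6.36e-05) against -0.02 (adjusted p = 0.982).

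The change stayed called under both readings in Ephx2, at -5.36 ± 0.42 (adjusted p = 1.03e-05) against -2.02 (adjusted p = 0.0269), in Gfra1, a receptor for glial cell line-derived neurotrophic factor, at 3.07 ± 0.41 (adjusted p = 0.000892) against 2.53 (adjusted p = 0.00752), and in Fabp3, a fatty acid-binding protein of muscle and brown fat, at -5.45 ± 0.89 (adjusted p = 0.00372) against -3.80 (adjusted p = 0.042).

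It was called only by the labels as given in Ucp1, at -4.56 ± 1.1 (adjusted p = 0.0286) against -3.76 (adjusted p = 0.0947), in Aspg, an asparaginase, at -5.70 ± 1.0 (adjusted p = 0.00575) against -3.47 (adjusted p = 0.0901), and in Rnd3 at 2.36 ± 0.46 (adjusted p = 0.0103) against 0.65 (adjusted p = 0.545). Fat markers as a list had a median difference of 0.73 at 3 weeks and -0.77 at 6 weeks, and their part in the changes of Ucp1 and Fabp3 was not tested.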

How the results depend on the processing

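The 6079 calls of SHR against WKY at 6 weeks moved with how the spread was pooled: they numbered 2634 (1268 higher, 1366 lower) with the 6 arrays alone, 3771 (1875 higher) with the 9 arrays aged 6 weeks, and 3472 (2013 higher, 1459 lower) without the slide that held both groups. Fewer samples in those fits leave fewer degrees of freedom. For SHR against WKY at 6 weeks, at least 2-fold, calls numbered 536 in place of 1151 after normexp background correction, and the cause was not tested. With 1 array left out in turn, all calls lay between 4704 and 5709, higher between 2494 and 3263, lower between 2210 and 2546, and those of at least 2-fold between 1102 and 1235. Calls of the age change of the SHR against WKY difference ranged from 746 without SHR array 1, and 806 without SHR array 3, to 1210, with 2623 under the slide as a block and 417 with the arrays labelled SHRSP at 3 weeks, a choice made after seeing the data; those of SHRSP against SHR at 6 weeks ranged from 2170 to 2950. With the replicate block, calls numbered 6268, 1352 and 3323 for the 3 comparisons.

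Of 292 named genes, 76 were no longer called with the 6 arrays alone, 77 without the slide that held both groups, 22 under quantile normalization and 13 to 28 with an array left out; no called difference changed sign in these fits. Quantile normalization lowered the median difference over all genes (0.055 against 0.093), which limits small rises. The precision is limited by 3 arrays a group, and a probe near background gives only a bound.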
